A study of Mus musculus with 29 samples.

Results

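The type I interferon response genes described here are 35 genes whose transcription is raised in mouse cells by interferon alpha or beta, or that carry the interferon signal into the nucleus. They were taken from a written list of symbols, and a member had to be present with a mean of at least 1 normalised count over all libraries. All 35 listed genes met this, out of 24310 genes at that level and 50384 gene symbols in the table. The lowest member, Oas1g, had a mean of 9.09 normalised counts, so no mean lay near the limit. Its group medians were 1.22 in Die, 0 in Live and 1.25 in sham blood.

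RNA was sequenced from whole blood of 29 male mice of a strain that the labels call LJ, with 1 library per animal and blood taken on day 120. The Die group (n = 9) and the Live group (n = 10) had received 11.35 Gy to the upper body, and the labels give the animals of these groups the outcome Die or Live. The sham group (n = 10) underwent a sham procedure without radiation and also carries the label Live. The series looks in blood for the response to radiation and for markers of survival with delayed lung injury. No other genotype, agent or batch is given in the labels, and all samples passed through the same removal of globin and ribosomal transcripts.

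Type I interferons are made by cells that sense foreign or misplaced nucleic acid. They bind a receptor of the chains Ifnar1 and Ifnar2, whose kinases Jak1 and Tyk2 phosphorylate transcription factors such as Stat2, which joins Irf9 in a complex that binds the interferon-stimulated response element in promoters. The genes so induced encode nucleic acid sensors, enzymes that degrade or edit RNA and nucleotides, the ubiquitin-like protein Isg15 and proteins that block viral replication. In blood, monocytes and plasmacytoid dendritic cells are well-known responders or producers, and reticulocytes, the young red cells, still carry RNA of their precursors.

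The promoters of 2 members that later results turn on, Isg15 and Rsad2, are shown because both hold the core of the response element, and that of Isg20 is shown because Isg20 comes next to Rsad2 in level but its window holds no core. Each sequence is 300 bases, from 250 before to 50 after the start site, taken from RefSeq on GRCm38.p6 and written 5′ to 3′ on the gene's strand. Capitals mark the core of the interferon-stimulated response element, which is GAAA, any 2 bases and GAAA again, or its reverse complement.
Isg15, chr4:156200769-156201068, minus strand: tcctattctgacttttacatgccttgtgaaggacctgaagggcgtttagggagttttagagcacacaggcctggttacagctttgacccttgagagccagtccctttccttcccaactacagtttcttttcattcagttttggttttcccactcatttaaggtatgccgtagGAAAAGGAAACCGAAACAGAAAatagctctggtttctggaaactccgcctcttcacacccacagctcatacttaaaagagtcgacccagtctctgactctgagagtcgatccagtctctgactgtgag
Rsad2, chr12:26456403-26456702, minus strand: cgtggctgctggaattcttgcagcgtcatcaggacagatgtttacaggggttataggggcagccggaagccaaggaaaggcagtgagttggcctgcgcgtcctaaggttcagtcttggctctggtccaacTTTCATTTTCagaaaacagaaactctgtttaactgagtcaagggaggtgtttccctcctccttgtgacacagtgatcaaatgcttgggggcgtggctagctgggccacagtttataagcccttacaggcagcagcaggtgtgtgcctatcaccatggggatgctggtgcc
Isg20, chr7:78913174-78913473, plus strand: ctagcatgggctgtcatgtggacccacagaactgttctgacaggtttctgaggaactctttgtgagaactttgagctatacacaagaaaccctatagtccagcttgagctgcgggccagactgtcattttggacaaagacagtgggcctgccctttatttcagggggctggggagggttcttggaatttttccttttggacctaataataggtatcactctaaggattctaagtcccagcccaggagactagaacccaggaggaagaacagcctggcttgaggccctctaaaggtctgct

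The Isg15 window holds 3 overlapping cores that begin 78, 72 and 66 bases before the start site and together form a repeat with GAAA 4 times. The core in the Rsad2 window begins 120 bases before the start site and lies on the opposite strand. Isg20 has 3 annotated start sites in the RefSeq table, and none of the 3 windows holds the core. Cores of 4 further members are shown to compare their middle bases. The first core of Ifit1, Ifit3 and Ifit3b has the same letters, and so has the second.
Ifit1, first core: TTTCACTTTC
Ifit1, second core: TTTCAGTTTC
Ifit3, first core: TTTCACTTTC
Ifit3, second core: TTTCAGTTTC
Ifit3b, first core: TTTCACTTTC
Ifit3b, second core: TTTCAGTTTC
Oas3: GAAAACGAAA

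RefSeq windows were found for 25 of the 35 members. Dhx58, Zbp1, Usp18, Oas1b, Oas2, Mx1, Mx2, Ifi27l2a, Rtp4 and Parp14 had no window. The core, searched on both strands, was present for 13 of the 25 members (52%), against 3.99% of 27025 genes. A longer repeat with GAAA 3 times, each 2 bases apart, which contains the core, was present for 3 members (12%; Isg15, Oas1a and Oas1g), against 0.133% of genes. The gamma-activated sequence TTCNNNGAA was present for 4 members (16%), against 9.55%, and the GATA motif AGATAA, on either strand, for 6 members (24%), against 12.7%. The window of Irf7 holds the GATA motif and no core. The members were listed as interferon targets, so these shares describe the list and are no test of it, and a match is not a bound site.

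In GENCODE M21 on GRCm38 the members lie on 12 chromosomes. The 7 OAS genes lie on chromosome 5, where Oas1a, Oas1b, Oas1g, Oas2 and Oas3 are neighbours, and the 4 Ifit genes lie together on chromosome 19. Ifit3 and Ifit3b are near-identical copies, and Oas1a, Oas1g and Oas1b are related genes. Reads may be split within each of these sets, so the separate values are uncertain. Oas1b and Mx2 are annotated as polymorphic pseudogenes. The exons or introns of 11 members overlap another gene, as Irf9 does Rnf31 and Ifi47 does Olfr56, and no source used here gives the strand setting of the authors' counting.

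The deposited totals lay between 19.6 and 55.7 M normalised counts per library, and no 2 libraries were identical. Expressed genes were listed at 0 more often in 3 libraries than in the rest. Of 11519 genes with a mean of at least 50, 828 were at 0 in sham replicate 1, 754 in Die replicate 2 and 506 in Die replicate 14, and at most 220 in any other library. These 3 libraries are called sparse below. The same 3 had 6, 7 and 3 members at 0, and 23 of the 35 members were above 0 in every library. The tissue label was met by summed erythroid markers with a median of 1136431 normalised counts in Die, 1646275 in Live and 1287439 in sham blood, and by markers of every leukocyte type looked for. In whole blood, fewer cells of a type and less RNA per cell cannot be told apart.

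Rsad2 and Isg20 stood far above the other members in blood of all 3 groups. Rsad2 (viperin) makes an antiviral nucleotide that stops viral RNA synthesis, and its mean of 103000 normalised counts ranked 23 of all genes and took 0.378% of all values. Its level per length was 23900 normalised counts per kb of exon. Isg20, an exonuclease that degrades RNA, had 14000 per kb and a rank of 91 by mean. Isg15 followed with 1840 per kb, Samd9l, which restrains viral translation and cell growth, with 930, and Ifi27l2a, a small mitochondrial protein, with 688. The other 30 members were at or below 481 per kb (Trim30a), down to 3.88 for Oas1g and 2.54 for Ifi44. Cmpk2, a nucleotide kinase that is the neighbour of Rsad2 on chromosome 12 and is read from the opposite strand, had 64.0 per kb.

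Among the transcription factors, Irf7, which amplifies interferon production, had the highest level and Stat2 the lowest. Irf7 had a lowest, median and highest value of 340, 561 and 2478 normalised counts in Die blood, 472, 1038 and 1635 in Live blood, and 562, 771 and 2012 in sham blood. Its groups overlapped, and the Die animals held both the lowest and the highest value. Irf9, the DNA-binding part of the complex, had medians of 815 in Die, 810 in Live and 975 in sham blood.

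The sensors Ddx58 (RIG-I), Ifih1 (MDA5) and Dhx58 (LGP2) bind viral RNA in the cytosol, and Zbp1 binds nucleic acid in an unusual left-handed form. Ddx58 was the highest of them by length, with 146 normalised counts per kb, and Ifih1 the lowest, with 43.6 per kb. Ifih1 had a lowest, median and highest value of 184, 431 and 601 normalised counts in Die blood, 106, 227 and 560 in Live blood, and 169, 397 and 623 in sham blood. Of the Live animals, 7 of 10 lay below all but 1 of the Die animals and all but 1 of the sham animals, yet the ranges overlapped. Zbp1 had 111, 247 and 403 in Die, 196, 282 and 420 in Live, and 180, 330 and 488 in sham blood.

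Isg15 is joined to other proteins after interferon, and Usp18 removes it and also damps the receptor. Isg15 had a lowest, median and highest value of 198, 1093 and 3923 normalised counts in Die blood, 591, 1352 and 2690 in Live blood, and 367, 1161 and 4013 in sham blood. Usp18 had medians of 69 in Die, 105 in Live and 115 in sham blood, and it was listed at 0 in Die replicate 2 and sham replicate 1. For both genes the 3 groups overlapped over most of their range.

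The Ifit proteins bind foreign RNA ends. Ifit2, their highest member, had medians of 1333 normalised counts in Die, 1278 in Live and 1112 in sham blood. Ifit1 had a lowest, median and highest value of 87.6, 188 and 838 in Die, 89.3, 203 and 355 in Live, and 121, 228 and 399 in sham blood, so that 3 Die animals lay above all Live and sham animals. Ifit3, the lowest, had medians of 35 in Die, 43.5 in Live and 49.4 in sham blood.

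The OAS family senses double-stranded RNA, and its active enzymes make a nucleotide second messenger. Oas3 was the highest, with a lowest, median and highest value of 488, 1069 and 4505 normalised counts in Die blood, 370, 1166 and 2930 in Live blood, and 740, 1240 and 3871 in sham blood. Oas1a had medians of 52.6 in Die, 77.3 in Live and 71.1 in sham blood. Oas1g was listed at 0 in 4 Die, 6 Live and 5 sham libraries.

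Among the effectors, Mx1 and Mx2 are dynamin-like GTPases that trap viral particles. Rsad2 had a lowest, median and highest value of 34450, 58799 and 394895 normalised counts in Die blood, 29041, 75171 and 250153 in Live blood, and 46043, 83059 and 232297 in sham blood. Isg20 had 11681, 18045 and 46125 in Die, 15463, 25355 and 51312 in Live, and 13826, 23189 and 59264 in sham blood. Mx1 had 23.4, 93.2 and 219 in Die, 45.5, 124 and 301 in Live, and 92, 160 and 304 in sham blood. The medians of all 3 genes were lowest in Die blood, and within every group the highest animal exceeded the lowest more than did the medians between groups.

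**Figure D1:**
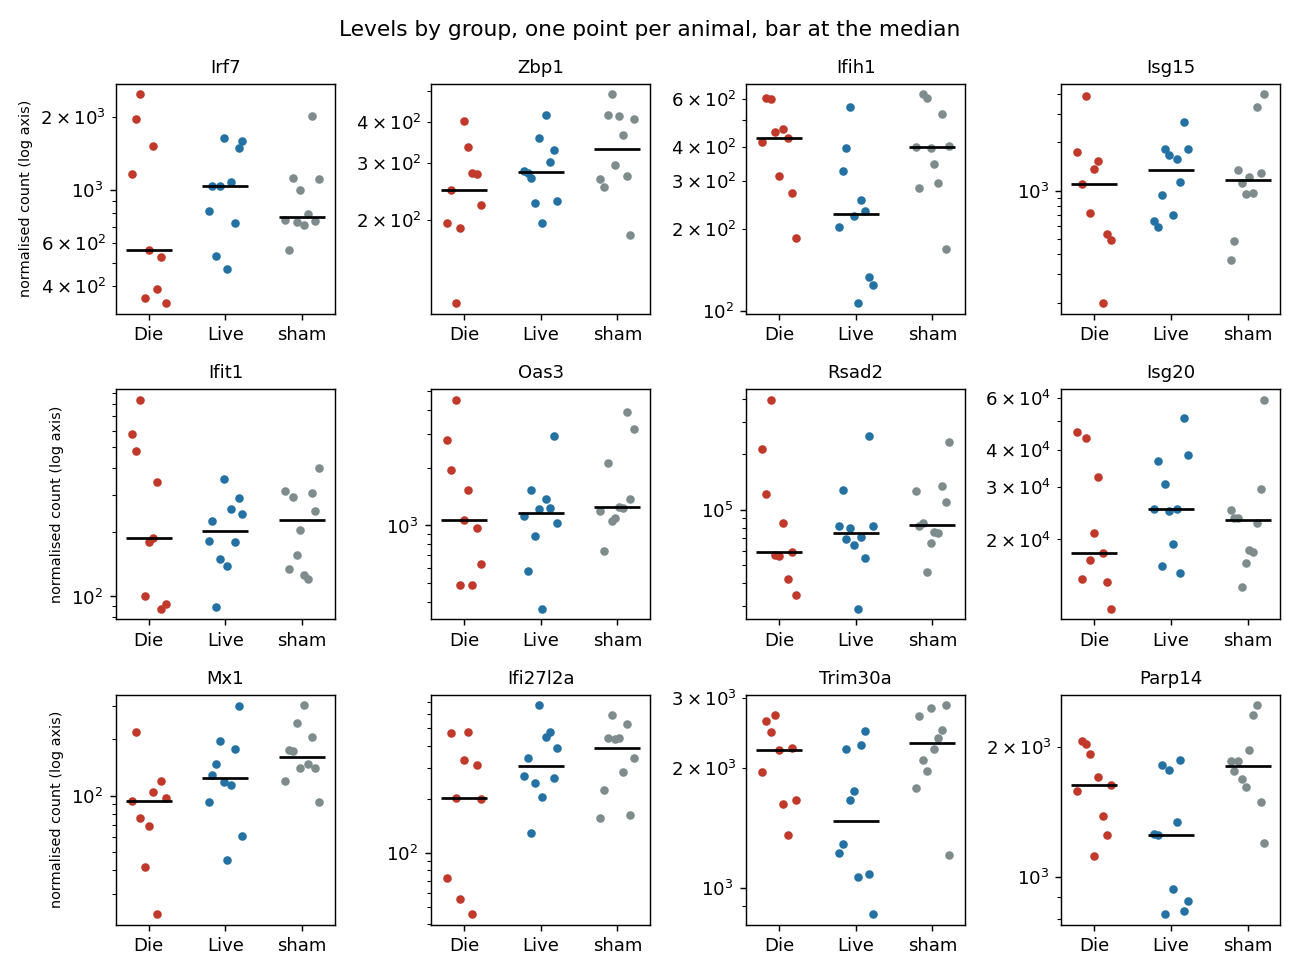
Normalised counts on a log axis for 12 members in Die, Live and sham blood, 1 point per animal, with a bar at the median. The groups overlap in every panel, and Ifih1, Trim30a and Parp14 have their lowest median in Live blood.

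Irradiated minus sham asks whether members differ 120 days after exposure, with Die and Live weighted equally. Changes are differences of log2(value + 0.5), tested with limma over all 24310 genes, and a call required p under 0.05 after Benjamini-Hochberg adjustment. No member passed it (0 of 35), beside 0.0165% of all genes (4 genes, all lower). The median change of the members was -0.14, against 0.02 over all genes, and 16 of 35 were above 0, beside 52.2% of all genes. That median was -0.33 without sham replicate 1 and 0.05 without sham replicate 8. At an unadjusted p under 0.05, 0 members were higher and 2 lower (5.71% of members), beside 3.45% of all genes higher and 3.95% lower. These were Mx1, at -0.74 ± 0.303 (SE; adjusted p = 0.551), and Parp14, an ADP-ribosyltransferase, at -0.36 (adjusted p = 0.563).

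Of the 10 members chosen to be given throughout, 9 had an interval in irradiated minus sham that reached to both sides of 0, and Mx1 did not. Irf7 was at -0.04 (95% interval -0.61 to 0.54), Isg15 at -0.14 (-0.88 to 0.60) and Rsad2 at -0.20 (-0.83 to 0.44). For these 3 genes, changes of 1 log2 unit in either direction lie outside the interval. Usp18 at 0.14, Ifit3 at 0.36 and Oas1a at 0.38 had SE of 0.772, 0.830 and 0.615, and all 3 changed sign without sham replicate 1, in which they were listed at 0. Ifit1 was at 0.02, Zbp1 at -0.32 and Ifi27l2a at -0.49, with adjusted p between 0.777 and 0.994. The positive values with the smallest p were those of Samd9l (0.23), Rtp4 (0.29), a receptor chaperone, Ifit2 (0.14) and Oasl2 (0.25), none past an unadjusted p of 0.05.

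Live minus sham also gave 0 of 35 members past the threshold, beside 0.0411% of all genes (10 genes). The median was 0.01 over members and 0.01 over all genes, and 18 of 35 members were above 0, beside 52% of all genes. Without sham replicate 1 the median of the members was -0.17. At an unadjusted p under 0.05, 0 members were higher and 3 lower, beside 3.76% and 3.93% of all genes. They were Parp14 at -0.56 ± 0.173 (SE; adjusted p = 0.254), Trim30a, a ubiquitin ligase that limits inflammatory signalling, at -0.55 ± 0.190 (0.352), and Ifih1 at -0.75 ± 0.281 (0.443). The positive values with the smallest p were those of Oasl1 (0.88), Ifit3 (0.78), Usp18 (0.71) and Isg20 (0.20), none past an unadjusted p of 0.05, and the negative value next to the 3 above was that of Oas3 (-0.48). Without sham replicate 1, Oasl1 was at 0.24, Ifit3 at 0.18 and Usp18 at -0.05, Ifit3 was also at 0.18 without sham replicate 9 and Usp18 at 0.46 without it, and Oas3 was at -0.31 without Live replicate 9. Irf7 was at 0.10, Isg15 at 0.04, Rsad2 at -0.26, Ifit1 at -0.11, Oas1a at 0.44, Zbp1 at -0.20, Mx1 at -0.44 and Ifi27l2a at -0.08. Trim30a had a lowest, median and highest value of 859, 1477 and 2481 normalised counts in Live blood and 1209, 2305 and 2878 in sham blood. Parp14 had 819, 1252 and 1858 in Live blood and 1196, 1805 and 2495 in sham blood. For Trim30a 3 Live animals, and for Parp14 4 Live animals, lay below the lowest sham animal, and the ranges otherwise overlapped. Of the 35, only these 3 genes passed an adjusted p of 0.05 in any alternative, when limma weighted the libraries by their quality, which called 716 of 24310 genes.

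Die minus sham gave 0 of 35 members past the threshold, beside 0% of all genes. The median was -0.11 over members and 0.02 over all genes. A change below 0 was found for 24 of 35 members, beside 11799 of 24310 genes. Of the 23 members detected in every library, 13 had a change below 0. The median of the members was -0.32 without sham replicate 1 and -0.05 without Die replicate 14. At an unadjusted p under 0.05, 0 members were higher and 3 lower, beside 4.13% and 4.54% of all genes. They were Mx1 at -1.04 ± 0.357 (adjusted p = 0.482), Ifi35, which binds other signalling proteins, at -1.74 ± 0.688 (0.526), and Ifi27l2a at -0.89 ± 0.397 (0.538). Ifi35 had a lowest, median and highest value of 0, 159 and 348 normalised counts in Die blood and 163, 315 and 476 in sham blood, with the value of 0 in the sparse library Die replicate 2. Without that library its change was -0.81. Ifi27l2a had 45.3, 205 and 476 in Die blood and 158, 390 and 592 in sham blood. The positive values with the smallest p were those of Samd9l (0.44), Oasl2 (0.45), Stat2 (0.29) and Rtp4 (0.41), none past an unadjusted p of 0.05, and Oasl2 was at 0.27 without sham replicate 1. Irf7 was at -0.18, Isg15 at -0.32, Rsad2 at -0.14, Usp18 at -0.44, Ifit1 at 0.15, Ifit3 at -0.06, Oas1a at 0.33 and Zbp1 at -0.45.

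Die minus Live addresses outcome among irradiated animals. It gave 0 of 35 members past the threshold, beside 0% of all genes. The median was -0.13 over members and 0.00167 over all genes, and that of the members was 0.03 without Die replicate 14 and 0.07 without the 3 sparse libraries. At an unadjusted p under 0.05, 4 members were higher and 2 lower, beside 5.02% and 5.32% of all genes. These 6 became 0 with the share of 7S RNA in the library as a covariate, 2 with array weights and 3 without the sparse libraries. The higher ones were Ifih1 at 0.79 ± 0.288 (SE; adjusted p = 0.383), Trim30a at 0.45 (0.436), Parp14 at 0.39 (0.443) and Ddx58 at 0.43 (0.473). The lower ones were Ifi35 at -1.66 and Ifi27l2a at -0.82, with adjusted p of 0.424 and 0.477. Oas1b at -1.73 and Mx1 at -0.61 followed, with unadjusted p of 0.0523 and 0.0974. Without Die replicate 2, Ifi35 was at -0.73 and Oas1b at -0.95, and without Die replicate 14 Oas1b was at -1.07 and Mx1 at -0.39. Irf7 was at -0.28, Isg15 at -0.36, Rsad2 at 0.12, Usp18 at -1.15, Ifit1 at 0.26, Ifit3 at -0.84, Oas1a at -0.12 and Zbp1 at -0.25. The comparisons share animals, so Ifih1, Trim30a and Parp14 being low in Live blood enters Live minus sham and Die minus Live alike.

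**Figure D2:**
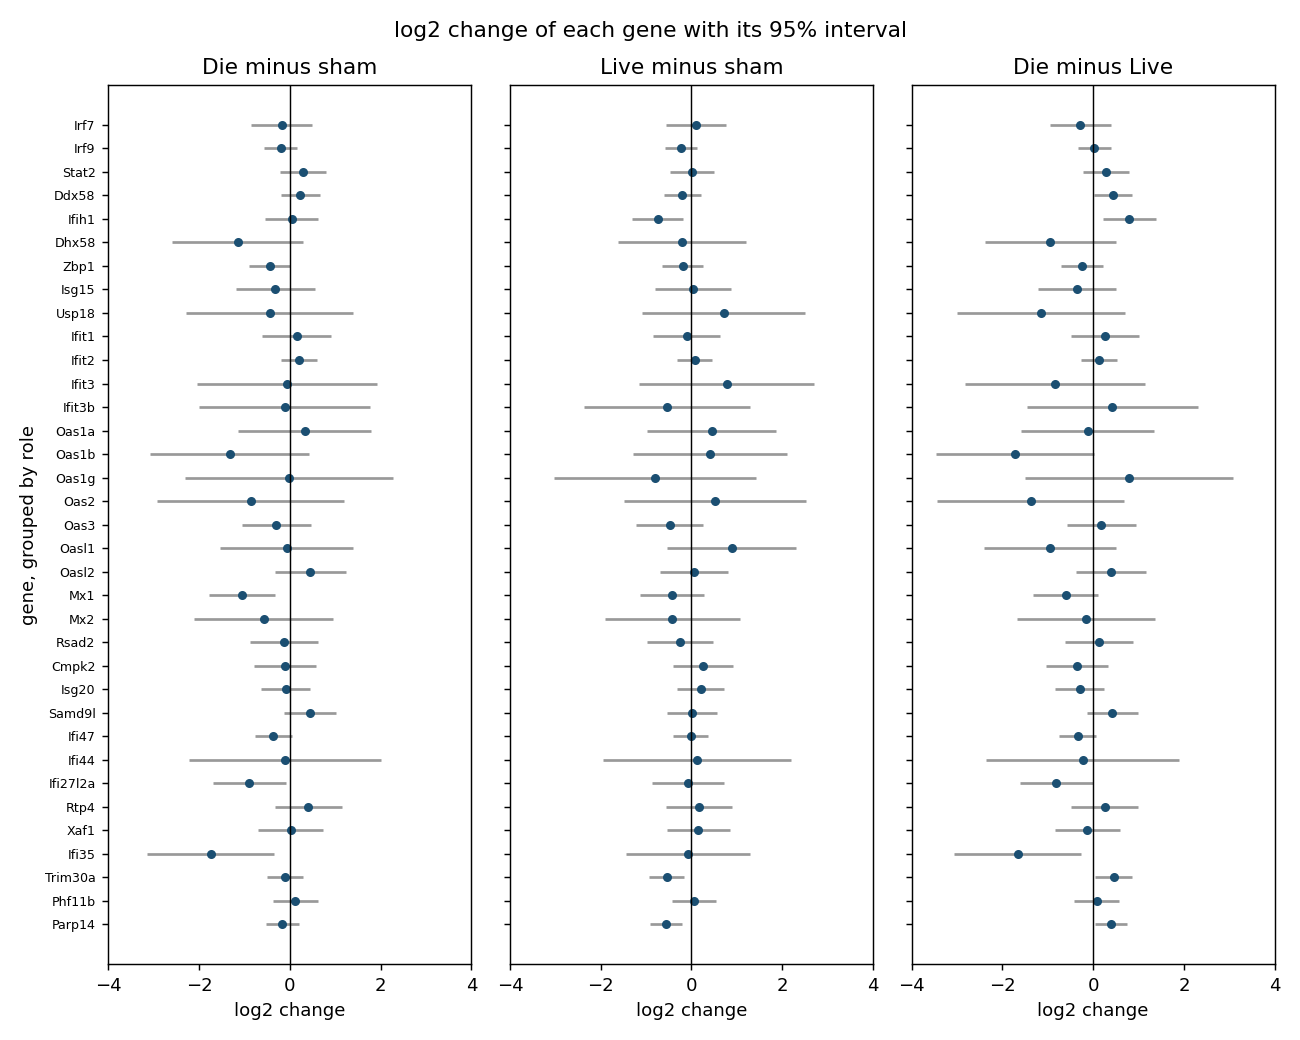
Log2 change of each member (point) with its 95% interval (bar), by role from top to bottom, for Die minus sham, Live minus sham and Die minus Live. Points lie on both sides of 0 in each panel, and the widest intervals belong to members with values of 0, such as Oas1g and Ifit3.

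Other genes of the pathway were read from the same fit, 73 of the 81 found having a mean of at least 1. None of the 73 passed the threshold in any comparison, and 15 had an unadjusted p under 0.05 in irradiated minus sham (20.5%), 2 higher and 13 lower, beside 3.45% of all genes higher and 3.95% lower. The same count was 3 higher and 8 lower in Live minus sham (beside 3.76% and 3.93%). It was 1 higher and 11 lower in Die minus sham (beside 4.13% and 4.54%). In Die minus Live it was 8 higher and 3 lower (beside 5.02% and 5.32%), and 40 of 73 were above 0, beside 50.3% of all genes. All genes tested had a median SE of 0.588 in irradiated minus sham, against 0.205 for the pathway genes. A closer comparison is the 9901 genes above 0 in every library, with a median SE of 0.222. Of these, 12.5% had an unadjusted p under 0.05 in irradiated minus sham, beside 20.5% of the pathway genes. In the same order, Live minus sham gave 13.3% and 15.1%, Die minus sham 12.4% and 16.4%, and Die minus Live 13.6% and 15.1%. Of the interferon genes themselves, 6 of 7 were listed at 0 in all 29 libraries (Ifnb1, Ifna1, Ifna2, Ifna4, Ifna5 and Ifnk), and Ifne reached at most 9.44 normalised counts. The receptor and kinase genes Ifnar1, Ifnar2, Jak1 and Tyk2 were all below 0 in irradiated minus sham, between -0.09 (Jak1) and -0.53 ± 0.194 (Tyk2, adjusted p = 0.464). The pathway genes had a median of -0.17 in irradiated minus sham and 50 of 73 were below 0, against a median of 0.02 over all genes, of which 52.2% were above 0.

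Slfn5, an interferon-induced member of the Schlafen family, had the smallest p of these genes. It had a lowest, median and highest value of 2009, 2812 and 4811 normalised counts in Die blood, 1520, 2090 and 3134 in Live blood, and 2510, 3738 and 4524 in sham blood. Its change was -0.77 ± 0.161 in Live minus sham (SE; adjusted p = 0.0635) and -0.55 ± 0.140 in irradiated minus sham (adjusted p = 0.186). In Live minus sham it passed 0.05 in several alternatives, for example without the 3 sparse libraries (adjusted p = 0.026). Ptpn6, a phosphatase that restrains cytokine receptors, was at -0.59 and Ifnar1 at -0.46 in Live minus sham, with adjusted p of 0.223 and 0.275, and Uba7, which activates Isg15 for conjugation, was at 0.82 (0.317).

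Of the remaining pathway genes named by the smallest p, Rnaseh2b, part of an enzyme that removes RNA from DNA, was at 0.79 and Parp12 at -1.64 in irradiated minus sham, with adjusted p of 0.441 and 0.462. In Die minus sham, Tyk2 was at -0.68, the adaptor Myd88 at -0.81, Parp12 at -2.03 and Bst2, which tethers budding virus, at -2.24, with adjusted p between 0.471 and 0.497. Parp12 was at -1.19 without the sparse library Die replicate 14. In Die minus Live, Trim30d was at 0.58, Slfn5 at 0.43, Sp100, a nuclear body protein, at 0.41 and Bst2 at -1.94, with adjusted p between 0.39 and 0.424. Bst2 was at -1.26 without Die replicate 2, and at -1.26 without Die replicate 14.

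Of the cell types looked for, the classical and non-classical monocytes had markers past the threshold in a group comparison. Summed over 8 genes, classical monocyte markers ran between 28894 and 64978 normalised counts in Die blood (median 40093), 20361 and 61957 in Live blood (31789), and 44952 and 105632 in sham blood (67320). All 8 markers were below 0 in irradiated minus sham, Live minus sham and Die minus sham, and Ccr2 and F13a1 fell in Live minus sham, by 1.40 and 0.75 on the log2 scale (adjusted p = 0.00592 and 0.0401). Of 6 non-classical monocyte markers, all were below 0 in the same 3 comparisons, and Cx3cr1 fell by 1.36 in irradiated minus sham and by 1.53 in Live minus sham (adjusted p = 0.00257 and 0.00175). Their sum had medians of 2441 in Die, 2642 in Live and 4207 in sham blood. In a model with the group means, the slope on the classical monocyte marker level was 0.53 for Trim30a (adjusted p = 0.0124), 0.28 for Parp14 (0.251) and 0.05 for Ifih1 (0.926). The part of these cells in the group differences of these genes was not tested. Plasmacytoid dendritic cell markers, 6 of 7 with a mean of at least 1 and Cox6a2 below it, had medians of 2583 in Die, 2973 in Live and 2692 in sham blood. Of 6 platelet markers, none passed the threshold in a group comparison. In Die minus Live all 6 were below 0, and 4 were lower at an unadjusted p under 0.05, beside 5.32% of all genes. In Live minus sham 5 were above 0, and 3 were higher at that p, beside 3.76% of all genes. Of 5 lung epithelium markers, Sftpc, Scgb1a1 and Sftpa1 had a mean below 1.

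Across animals, 6 members followed the level of erythroid markers, the genes of red cell precursors. The mean log2 level of 5 erythroid markers, among them Hba-a1, Hbb-bs, Alas2 and Slc4a1, was entered in the model beside the group means, and the slope is the log2 change of a gene per 1 log2 unit of that level. Of 35 members, 6 had a positive slope past an adjusted p of 0.05 (17.1%), beside 2.88% of all genes, and 0 a negative one, beside 1% of all genes. They were Rsad2 at 1.17 ± 0.113 (SE; adjusted p = 3.2e-09), Isg20 at 0.84 ± 0.0809 (3.24e-09), Isg15 at 0.96 ± 0.216 (0.0046), Oas3 at 0.85 ± 0.187 (0.00345), Irf7 at 0.74 ± 0.169 (0.00599) and Ifit1 at 0.78 ± 0.197 (0.0158). The median slope was 0.03 over members and -0.20 over all genes, and 20 of 35 members were above 0. The share of all genes depends on the filter. With a minimum mean of 10, the same 6 of 34 members passed, beside 1009 of 16141 genes in either direction.

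Within groups, the least-squares slope of Rsad2 was 1.36 in Die, 1.07 in Live and 0.94 in sham blood. That of Isg20 was 0.79 in Die, 0.79 in Live and 0.997 in sham blood. The 3 next genes had their steepest slope in Die blood. Isg15 had 1.39 in Die, 0.56 in Live and 0.72 in sham blood, Oas3 had 1.31 in Die, 0.50 in Live and 0.47 in sham blood, and Ifit1 had 1.07 in Die, 0.51 in Live and 0.58 in sham blood. For Irf7 the slope was 1.18 in Die, 0.66 in Live and -0.04 in sham blood. A difference of slopes between groups was not tested.

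The relation of Rsad2 and Isg20 held without the libraries farthest out in erythroid level, and that of the other 4 genes rested partly on them. Without Live replicate 18 and Die replicate 4, which lay 1.54 and 1.37 log2 units above the mean erythroid level, Rsad2 had a slope of 1.04 (adjusted p = 8.92e-06) and Isg20 of 0.92 (6.4e-07). Irf7 (0.69), Isg15 (0.86), Ifit1 (0.73) and Oas3 (0.65) then had adjusted p between 0.0599 and 0.105. Leaving out the 3 sparse libraries called the same 6 members, beside 4.06% of all genes positive. So did leaving out the hemoglobin genes from the marker level, which called 1297 of 24310 genes in either direction. Die replicate 4 alone decided Ifit1, whose slope without it was 0.66. Hba-a1, Hbb-bs, Alas2 and Slc4a1 did not pass the threshold in any group comparison, these 4 genes having adjusted p of at least 0.524.

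**Figure D3:**
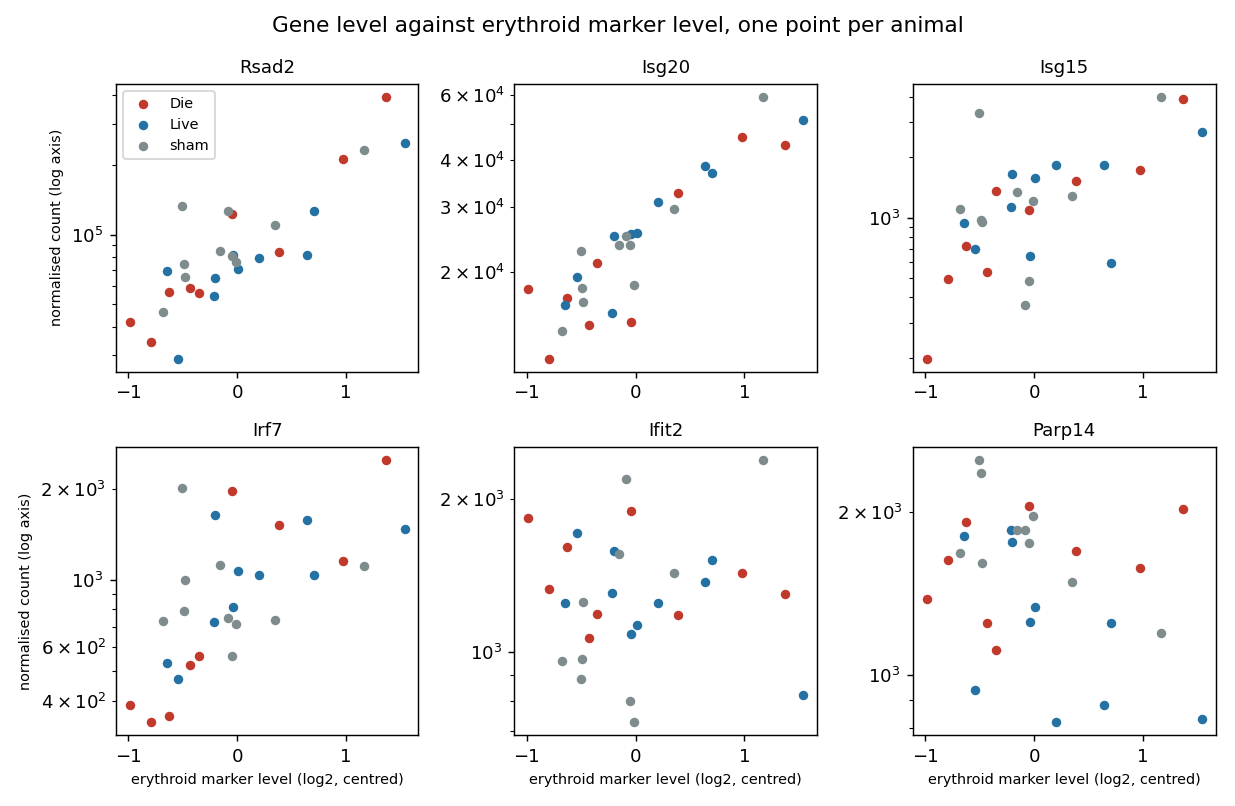
Normalised counts (log axis) of 6 members against the erythroid marker level of the library (mean log2 of 5 markers, centred), 1 point per animal, coloured by group. Rsad2 and Isg20 run along a line in all 3 groups, Isg15 and Irf7 scatter more, and Ifit2 and Parp14, shown for contrast, have slopes of 0.02 and -0.16 that did not pass the threshold.

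Of the 73 other pathway genes, 5 had a positive slope on erythroid markers past the threshold, beside 2.88% of all genes. A negative slope past it was found for 2, beside 1% of all genes. Ube2l6, the enzyme that carries Isg15 to its targets, ranked 14 of all genes with 0.707% of all values and had a slope of 0.85 ± 0.0722 (adjusted p = 4.03e-10). It had a lowest, median and highest value of 97968, 128904 and 364305 normalised counts in Die blood, 116730, 185352 and 417057 in Live blood, and 101935, 170184 and 394054 in sham blood. Rnaseh2b (0.63), Ifi27 (0.54) and Ifnar2 (0.34) were among the others with positive slopes past the threshold. The 2 negative slopes were those of Tyk2 (-0.43) and Ptpn6 (-0.33).

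**Figure D4:**
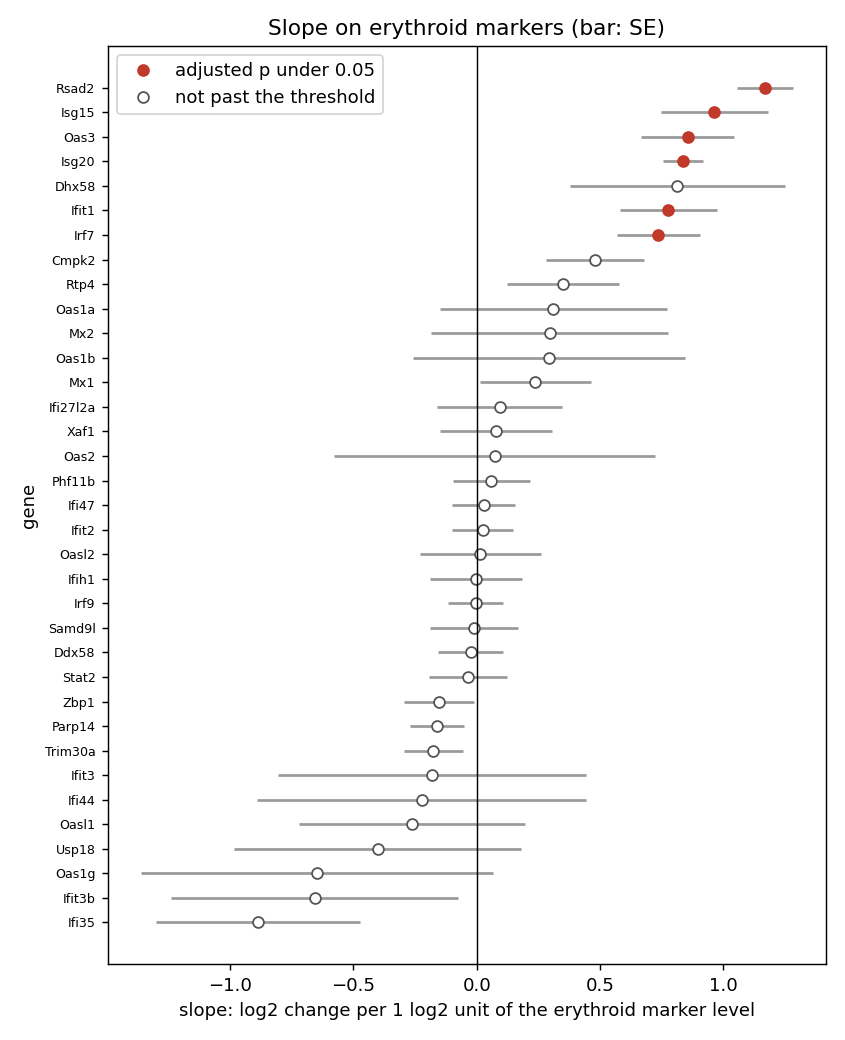
Slope of each member on the erythroid marker level, in log2 change per log2 unit, with its SE as a bar, ordered from highest to lowest. The 6 filled points passed an adjusted p of 0.05 and all lie at 0.74 or above.

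The marker lists of both monocyte types and of lung epithelium also gave slopes past the threshold for members. For classical monocytes it was Trim30a, whose slope had an SE of 0.122, beside 1.59% of all genes positive and 1.22% negative, and without the 3 sparse libraries its slope was 0.58 (0.0325). Isg20 then also passed, at -0.82 (0.0355), beside 0.852% of all genes positive and 0.917% negative in that set of libraries. For non-classical monocytes, 6 members had positive slopes (Irf9, Stat2, Usp18, Oas2, Oasl1 and Oasl2), beside 8.03% of all genes. Negative slopes were found for 2 (Ifit2 and Samd9l), beside 3.81%. Without the 3 sparse libraries none of the members passed, beside 0.0452% of all genes positive and 0.0123% negative. On the 2 lung epithelium markers detected, 4 members had negative slopes (Irf7, Oas3, Rsad2 and Isg20), beside 0.938% of all genes negative and 0.271% positive. Without the sparse libraries none passed there either, beside 0.0123% of all genes negative and 0.00411% positive. These 4 genes are among the 6 with a positive slope on erythroid markers. Lung marker levels were lowest in Live replicate 18 (-3.5, erythroid level 1.54) and Die replicate 2 (-2.64, 0.975), and highest in Die replicate 14 (2.46, -0.988). Summed lung markers were low, with medians of 36.1 in Die, 38.8 in Live and 27.7 in sham blood. Whether the 2 relations are separate was not tested. On platelet markers no member passed with all libraries, beside 0.633% of all genes positive and 0.197% negative. Without the sparse libraries Trim30a (-0.55) and Parp14 (-0.50) had negative slopes past the threshold, beside 1.16% of all genes positive and 0.543% negative.

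Libraries differed in the level of the members as a whole. Averaged over the 35 centred log2 values, the highest library was sham replicate 8, at 0.91 with 29 members above their median, followed by Die replicate 4 at 0.62 with 25, sham replicate 3 at 0.55 with 30, and Die replicate 3 at 0.55 with 23. Apart from the 3 sparse libraries, which were lowest, Live replicate 9 was low, at -0.59 with 5 members above their median. Sham replicate 8 was high with an erythroid level of -0.50, while Die replicate 4 was high with one of 1.37. Each of these 2 libraries held the highest value of 5 members. The 31 members with a mean of at least 50 had a median SD of 0.78 log2 units within groups, against 0.61 over the 11519 genes at that level.

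**Figure D5:**
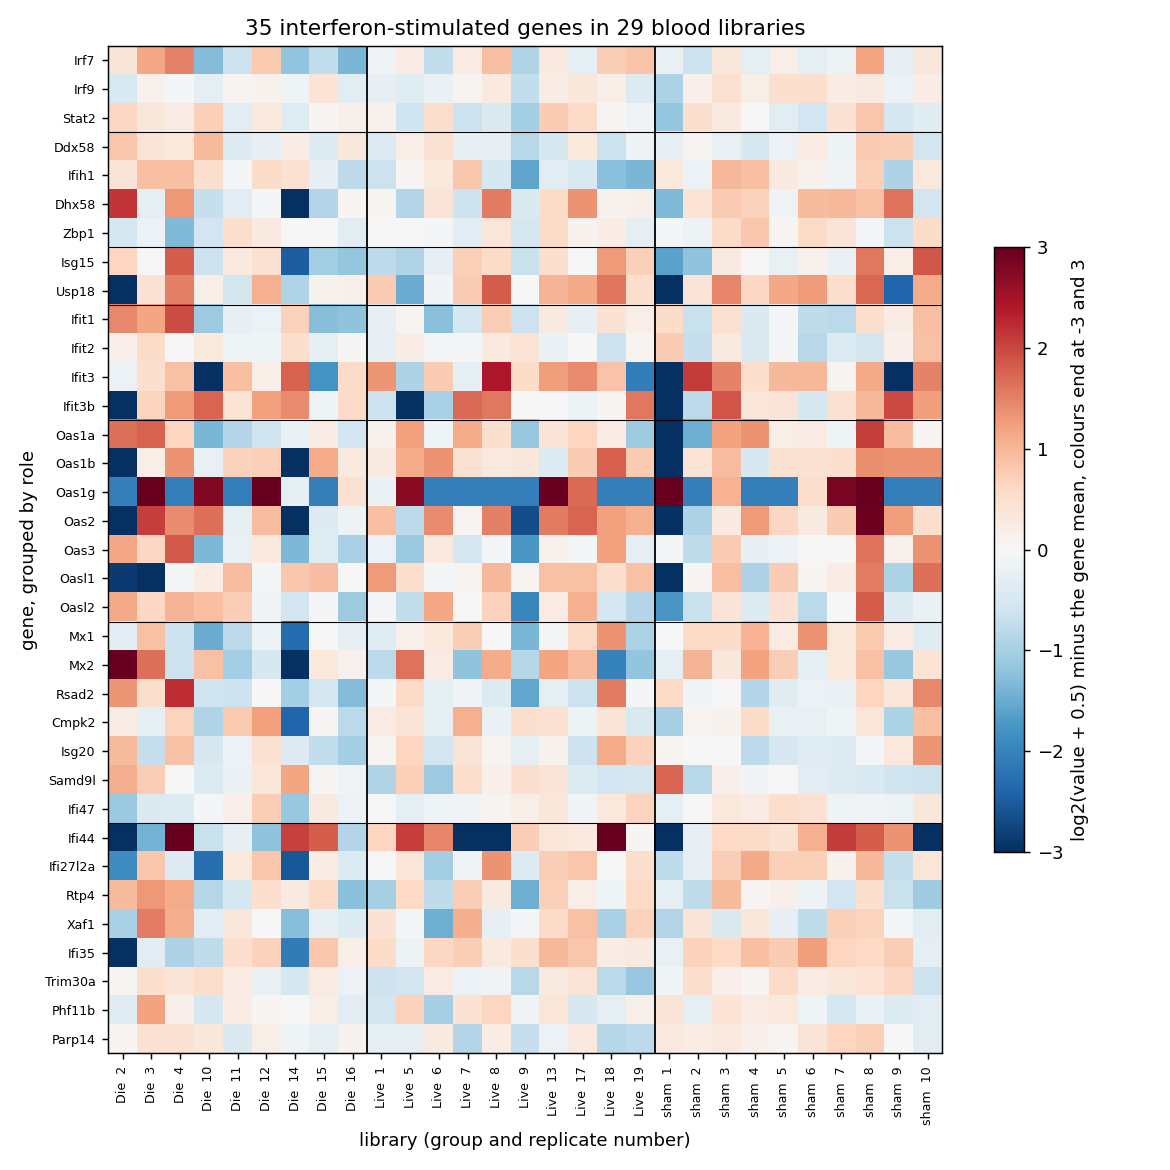
Centred log2 value of the 35 members (rows, by role) in the 29 libraries (columns, Die, Live and sham from left to right), red above and blue below the gene's mean, with colours ending at -3 and 3. High and low libraries occur in all 3 groups, and most of the darkest blue cells lie in the 3 sparse libraries or belong to low genes such as Ifi44.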

How the data were processed

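Total RNA of whole blood was sequenced in 29 mice, and the authors deposited 1 table of gene symbols by libraries whose values are a normalised signal, called normalised counts here. Per the submitters' processing notes, bcl2fastq 2.19, kallisto 0.44.0, sleuth, DESeq2 and GRCm38 were used, but no source used here gives their order or roles. Divided by the apparent value of 1 read, 1.79% to 32.0% of a library's values came out whole within 0.01, so read counts were not recovered and depth is unknown. No interval that needs counts is given, and a value of 0 can be a failed estimate.

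A limma 3.58.1 model (R 4.3.3) with a trend was fitted to log2(value + 0.5) of 24310 genes with a mean of at least 1, with 3 group means. The 4 contrasts were adjusted by Benjamini-Hochberg over all genes, two-sided. The pseudocount makes changes between low values smaller, but a single 0 in a gene of higher level can make its change larger. Ifi35 in Die minus sham was at -1.74, and at -0.81 without Die replicate 2, where it was 0. The members and lists were chosen with earlier results of these data known, and the slopes on 10 marker lists were added after the data were seen. Ahsp, an erythroid marker, was not matched. A few genes of the lists are not reported here. Named genes were 10 fixed members, the 4 members per direction with the smallest p in each contrast, the highest and lowest member of each role, and the 4 pathway genes with the smallest p. Nothing in the labels says that samples share an animal or a day. The model was tested on simulated data. Alternatives changed the pseudocount, filter, scaling, weights, covariates and libraries. Python 3.11.15 with pandas 2.3.3 and matplotlib 3.10.9 was used for levels, motifs and plots.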

Additional observations from a re-analysis of the deposited data

Results flagged for a closer look

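A single library stood apart from the rest of its group, by the ratio of its gap to the group's range, in 17 of 105 combinations of member and group, spread over 14 members. Chance gives about 1 in 20 such cases, and 11 of the 17 were values of 0. Sham replicate 1, a sparse library, accounted for 8. Its value was lowest for Irf9 (441, next 737), Usp18 (0, next 11.4), Ifit3b (2.15, next 21.9), Oas1a (0, next 21.9), Oas1b (5.54, next 54.3), Oas2 (0, next 17.6) and Oasl1 (0, next 17.6), and highest for Samd9l (15190, next 4970).

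The sparse library Die replicate 2 had 0 for Usp18 (next 33.1), Ifit3b (next 34.9) and Ifi35 (next 46.3), and Die replicate 14 had 0 for Dhx58 (next 59.3) and Mx2 (next 20.5). In libraries that were not sparse, Ifit3 was 0 in Die replicate 10 (next 6.8) and Ifit3b was 0 in Live replicate 5 (next 19). Phf11b was high in Die replicate 3, at 522 normalised counts (next 262). Isg20 was high in sham replicate 10, at 59264 (next 29624), the sham library with the highest erythroid marker level (1.17).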

How the results depend on the processing

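No member passed the threshold in irradiated minus sham, Die minus sham or Die minus Live under any alternative run, or without any library. In Live minus sham, 3 passed with array weights, Ifih1 (-0.94), Trim30a (-0.57) and Parp14 (-0.59). With array weights, 4 pathway genes passed in irradiated minus sham and 8 in Live minus sham. All genes called with these weights numbered 481 and 716 of 24310. In Live minus sham, 1 pathway gene (Slfn5) passed with a minimum mean of 10, where 13 of 16141 genes were called. In this comparison it also passed with TMM factors (13 of 24310 genes), without the sparse libraries (115) and at an adjusted p under 0.10 (17). Leaving out single libraries gave 0 to 1 there, with 1 without sham replicate 1, sham replicate 10, Live replicate 17 or Die replicate 2. All genes called without these libraries numbered 41, 50, 39 and 13.

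The sign of 11 of 56 log2 changes of named genes turned under some alternative, and none of them was past the threshold. In irradiated minus sham, values were -0.0014 for Ifit3 and -0.016 for Usp18 with a pseudocount of 5, and -0.012 for Ifit1 with TMM factors. With array weights they were -0.057 for Ifit1, -0.51 for Ifit3, -0.56 for Oas1a, -0.38 for Usp18, -0.050 for Rtp4 and -0.011 for Oasl2, and also -0.073 for Usp18 in Live minus sham and -0.023 for Rtp4 in Die minus sham. With the 7S RNA share as covariate Usp18 was at -0.18, and at -0.34 in Live minus sham. Without the 3 sparse libraries, Ifit1 was at -0.048, Ifit3 at -0.40, Oas1a at -0.45 and Usp18 at -0.14, and at -0.048 in Live minus sham. With the erythroid level as covariate Ifit1 was at -0.086. Leaving out single libraries gave -0.093 to 0.12 for Ifit1, -0.24 to 0.69 for Ifit3, -0.14 to 0.093 for Irf7, -0.33 to 0.057 for Isg15, -0.36 to 0.64 for Oas1a and -0.63 to 0.54 for Usp18, and -0.048 to 0.95 for Usp18 in Live minus sham. The cause was not tested.

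No pairing of animals by replicate number was detected. Over 10 pairs the correlation of deviations lay between -0.19 and 0.040, and 0 samples fitted best with their own number. The fit with the replicate block used only the libraries of these 10 pairs and left out the irradiated animals with higher numbers. It thus differs from the main fit in the block and in the animals, and their parts were not tested. In that fit 0 members passed. The values in irradiated minus sham were 0.18 for Irf7, 0.012 for Isg15, -0.26 for Ifit3, 0.15 for Rsad2 and -0.52 for Usp18. The median of the members was -0.086 in irradiated minus sham, -0.14 in Live minus sham and 0.22 in Die minus sham with the block.

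Members with a slope on erythroid markers numbered 6 in all settings but 2, with 5 without Die replicate 4 and 2 without the libraries farthest out. These slopes compare libraries, whose values share 1 scaling each. Depth is unknown, so it cannot be said how far counting noise widens the spread of low members.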
